A study of Homo sapiens with 6 samples.

Results

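The BCL2 family decides whether a cell commits to apoptosis at the mitochondrion, and 10 of its genes were followed here across Du145 cells, a human prostate carcinoma line, with and without knockdown of the tumour suppressor TSC2. The genes were chosen by name from the family, at a time when earlier results of these data were known. All 10 were on the array, each with 1 probe set, among 18417 genes tested. They comprise the pro-survival genes BCL2, BCL2L1, MCL1 and BCL2A1, the effector BAK1, and the BH3-only genes BCL2L11, BBC3, PMAIP1, BID and BIK. Expression was measured on 6 arrays in 3 groups of 2. Control cells carry no infection entry in the labels, shTSC2 cells were infected with a lentivirus carrying a short hairpin RNA against TSC2, and shTSC2-adapted cells are described as adapted from that knockdown. Every group spent 24 h in hypoxia at 1% oxygen before RNA was taken, in a medium rich in glucose with 10% serum, under 5% CO2 and at 37 °C, so no group here was kept at ambient oxygen. The sources used here do not give the nature of the adaptation, any virus in the control cells, or whether the knockdown cells were a clone or a pool. Nothing in the labels states that arrays of a group came from separate cultures, so the p-values cover the spread between arrays alone, and that spread may be technical. Every value below is a transcript level.

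Pro-survival members of the family hold the effectors BAK1 and BAX in check at the outer mitochondrial membrane. BH3-only proteins sense stress and act by binding the pro-survival members or the effectors directly. Once the effectors are free they form pores, cytochrome c leaves the mitochondrion, and APAF1 and caspase-9 start the caspase cascade. Several family members turn over quickly, MCL1 and PMAIP1 among them, and their levels also depend on translation and protein decay, which arrays do not measure. The TSC complex restrains the growth kinase mTORC1, which promotes translation.

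The arrays were alike in scale, with median intensities of 58.1 to 63.1, and across genes arrays of a group correlated at Pearson r = 0.990 to 0.997 against 0.971 to 0.973 between control and shTSC2. TSC2 itself stood at log2 intensities of 7.52 and 7.59 in control, 6.67 and 6.55 in shTSC2, and 6.54 and 6.48 in shTSC2-adapted, so the 4 knockdown arrays lay below both controls. It fell by 0.95 in shTSC2 (adjusted p = 0.00102) and by 1.05 in shTSC2-adapted (adjusted p = 0.0241, but 0.386 and 0.372 without the first and the second control array, 0.169 and 0.0973 without the first and the second adapted array, 0.244 with every probe set tested and 0.0515 with the array number as a block). The keratins KRT8 (11.22 to 11.50) and KRT18 (11.23 to 11.50) were bright on all arrays. The other epithelial markers moved with the groups: KRT19 (-1.38, adjusted p = 0.00664) and EPCAM (-1.29, 0.0271) fell in shTSC2, with CDH1 at -0.14 (0.722), and KRT19 (1.55, 0.00772), EPCAM (1.65, 0.0173) and CDH1 (1.54, 0.00756) were higher in shTSC2-adapted than in shTSC2. The prostate secretory gene KLK3 (5.01 to 5.29) was below the median of all probe sets (5.91). Markers of other cells also moved with the knockdown in shTSC2, where 6.87% of all genes rose. Rises were seen in 2 of 6 embryonic kidney and packaging line markers (PAX2 and the neurofilament gene NEFM). They were also seen in 2 of 9 lymphoid and myeloid markers (CD68 and FCER1G) and 2 of 7 neuroendocrine markers (SCG5 and SNAP25). In the first of these lists LHX1 (0.07), EYA1 (-0.05), NEFL (0.41) and INA (0.39) did not pass in shTSC2. INA was at 6.09 and 7.47 on the adapted arrays, against 5.59 and 5.47 in control. The summed intensity of these lists was 378 to 399, 532 to 535 and 327 to 328 in control, 468 to 575, 695 on both arrays and 378 to 407 in shTSC2, and 459 to 709, 560 to 581 and 313 to 317 in shTSC2-adapted. The defining leukocyte gene PTPRC was at 3.49 to 3.58 and the neuroendocrine gene CHGA at 4.40 to 4.79 on all 6 arrays, and the part of these marker lists in the results below was not tested.

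Throughout, values are log2 intensities, a difference is that of group means with its standard error (SE, n = 2 arrays per group), and the adjusted p comes from limma, two-sided, over all 18417 genes, with 0.05 as the threshold. In shTSC2 against control, 3 of the 10 genes passed: the BH3-only genes PMAIP1 and BCL2L11 rose and the pro-survival gene BCL2L1 fell. Of all genes tested, 20.8% passed in this comparison (6.87% higher and 13.9% lower), against 30.0% of the members, and no result about the family is read from a share of so few genes. The arrays of these groups did not overlap for any of the 10 members (6 higher and 4 lower in shTSC2), which 62.0% of all genes also showed (32.4% higher and 29.6% lower). In shTSC2-adapted against control, 0 of 10 passed with limma, where 0.261% of all genes did (0.0543% higher and 0.206% lower), and 2 members (BCL2L1 and BAK1) had an unadjusted p under 0.05. There 4 members were higher and 1 lower without overlap, against 45.9% of all genes (21.8% and 24.1%). In shTSC2-adapted against shTSC2, which is the test of whether the knockdown groups differ, 4 of 10 passed against 12.5% of all genes (9.25% higher and 3.24% lower): BCL2L1 and BID were higher and BCL2L11 and PMAIP1 lower in the adapted cells. Without overlap, 3 members were higher and 4 lower, against 52.1% of all genes (25.0% and 27.1%). The median difference over the members was 0.17, 0.05 and -0.04 in these comparisons, and that of all genes 0.03, -0.01 and -0.03. The comparisons share arrays in pairs and are not independent of each other.

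**Figure D1:**
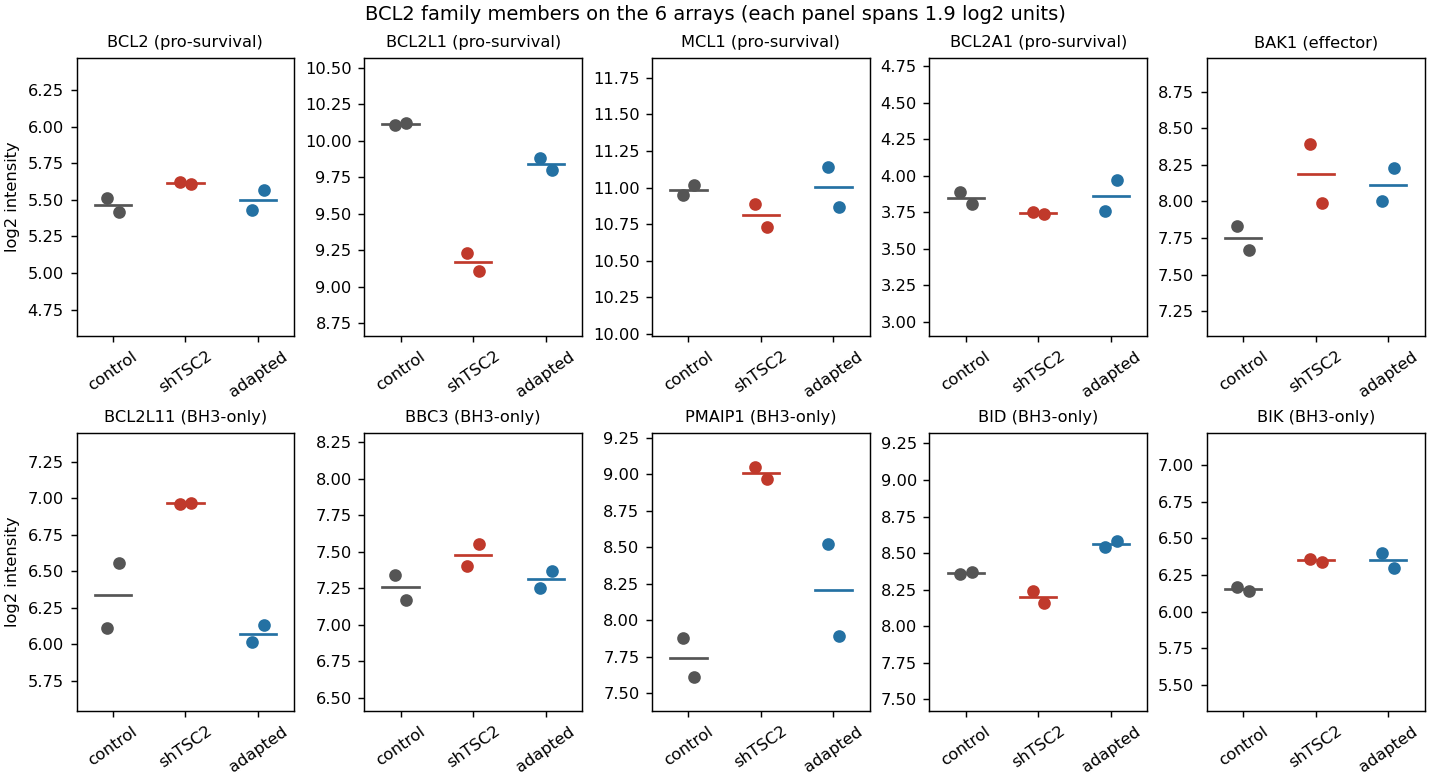
Log2 intensity (vertical axis) of each of the 10 BCL2 family members on the control, shTSC2 and shTSC2-adapted arrays. Points are single arrays, lines are group means of 2 arrays, and every panel spans the same number of log2 units. BCL2L1 is lowest and PMAIP1 and BCL2L11 are highest on the shTSC2 arrays.

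The promoter windows of the 3 genes that moved in shTSC2 are shown first, because they are the sequences on which regulators of these transcripts would act. RefSeq windows on GRCh38.p14, from 250 bases before to 50 after an annotated start, were matched for 8 of the 10 members, 13 windows in all, and none was matched for MCL1 and BIK. Capitals mark matches to motifs of the transcription factors on a list of known regulators of this family, on either strand. The pattern used for NF-kB is looser than its consensus, as described below.

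PMAIP1 (chr18:59899746-59900045, strand +): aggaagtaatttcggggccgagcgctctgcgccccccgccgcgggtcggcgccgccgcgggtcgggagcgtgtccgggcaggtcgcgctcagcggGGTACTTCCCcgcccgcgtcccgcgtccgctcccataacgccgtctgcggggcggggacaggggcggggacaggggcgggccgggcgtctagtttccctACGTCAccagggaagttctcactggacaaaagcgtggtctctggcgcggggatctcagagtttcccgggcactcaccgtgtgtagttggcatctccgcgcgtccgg
BCL2L11 (chr2:111120664-111120963, strand +): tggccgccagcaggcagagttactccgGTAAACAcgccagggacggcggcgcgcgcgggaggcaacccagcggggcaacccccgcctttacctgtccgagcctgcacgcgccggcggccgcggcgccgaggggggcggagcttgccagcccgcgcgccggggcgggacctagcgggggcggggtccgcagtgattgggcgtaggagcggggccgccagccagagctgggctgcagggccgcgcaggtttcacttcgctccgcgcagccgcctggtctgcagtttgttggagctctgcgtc
BCL2L1 (chr20:31723914-31724213, strand -): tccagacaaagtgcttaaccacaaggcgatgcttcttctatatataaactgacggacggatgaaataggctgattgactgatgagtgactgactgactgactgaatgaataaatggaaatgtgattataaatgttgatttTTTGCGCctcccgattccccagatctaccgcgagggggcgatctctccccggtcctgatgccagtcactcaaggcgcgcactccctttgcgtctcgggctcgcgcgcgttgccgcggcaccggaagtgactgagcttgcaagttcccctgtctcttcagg

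The motifs searched are given with the percentage of all 35116 windows of this length that held each. For CREB and ATF factors they were TGACGTCA (the cAMP response element, 1.85%) and its half-site TGACGT (7.98%). Others were TGATGCAA (an amino acid response element, 0.866%), GTAAACA (FOXO, 3.42%), TTNGCGC (E2F, 7.81%) and TGANTCA (AP-1, 7.71%). The rest were ACGTG (the hypoxia response element core, 21.4%), CACGTG (the E-box of MYC, 7.26%), TTCNNNGAA (STAT, 7.66%) and a loose NF-kB pattern (25.6%). The NF-kB pattern fixes the purine of the consensus to adenine. It leaves free the central bases and also the pyrimidines before the final bases. None of the NF-kB matches named here fits the full consensus. The half-site lies within the full cAMP element, and the hypoxia core lies within the E-box. PMAIP1 held a match to the loose NF-kB pattern that begins at position -155 from the start and a CREB/ATF half-site at -56. BCL2L11 held a FOXO match at -223, and the upstream of the 2 BCL2L1 windows an E2F match at -110. The other BCL2L1 window and that of BAK1 held none of the 10 motifs. Of the remaining members, BCL2A1 had the amino acid response element and a STAT match, and BBC3 an AP-1 match and an E-box. BCL2 had a match to the loose NF-kB pattern. In BID, 2 of the 5 windows, which overlap each other, held the same loose NF-kB and E-box matches. A match describes letters in the window and shows no binding.

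Among the pro-survival genes, BCL2L1, which encodes BCL-XL, was the one that changed. Its log2 intensity was 10.11 and 10.12 in control, 9.23 and 9.11 in shTSC2, and 9.88 and 9.80 in shTSC2-adapted. Arrays of the 3 groups did not overlap, with shTSC2 lowest and the adapted cells between shTSC2 and control. In shTSC2 it fell by 0.95 (SE 0.10, 95% interval -1.17 to -0.72, adjusted p = 0.00101), to 51.9% of the control level. In shTSC2-adapted it was at 82.6% of control (-0.28, SE 0.10, 95% interval -0.50 to -0.05), which did not pass (adjusted p = 0.295). The adapted cells were higher than shTSC2 by 0.67 (SE 0.10, adjusted p = 0.00628). Both calls held in all 17 alternative settings, with adjusted p up to 0.0221 and 0.0459. The RNA is bulk, so a lower level in all cells and fewer cells with the transcript cannot be told apart. BCL2L1 also gives a short, pro-apoptotic splice form, and the annotation of the probe set lists transcripts of both forms, which the value does not separate.

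MCL1, a short-lived survival protein, was at 10.95 and 11.02 in control, 10.89 and 10.73 in shTSC2, and 11.14 and 10.87 in shTSC2-adapted. The shTSC2 arrays were below the controls by less than the gap between the adapted arrays, and the difference of -0.18 (95% interval -0.46 to 0.11) did not pass (adjusted p = 0.364). In the adapted cells the difference from control was 0.02 (95% interval -0.26 to 0.30, adjusted p = 0.979), and from shTSC2 0.20 (95% interval -0.09 to 0.48, adjusted p = 0.355). These intervals leave room for a change of MCL1 smaller than that of BCL2L1.

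BCL2, the founding member, stood at 5.51 and 5.42 in control, 5.62 and 5.61 in shTSC2 and 5.43 and 5.57 in shTSC2-adapted, below the median of all probe sets on every array. Its difference in shTSC2 was 0.15 (95% interval -0.08 to 0.38, adjusted p = 0.336), that in shTSC2-adapted 0.04 (adjusted p = 0.943), and the adapted cells stood at -0.12 from shTSC2 (adjusted p = 0.513). BCL2A1, an NF-kB-induced member known mainly from blood cells, ranged from 3.74 to 3.97 over the 6 arrays, under the lower quartile over probe sets (4.33). At that brightness its differences of -0.11, 0.02 and 0.12 say little about change (adjusted p = 0.541, 0.980 and 0.526).

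BAK1, the pore-forming effector among the members, was at 7.83 and 7.67 in control, 8.39 and 7.99 in shTSC2 and 8.00 and 8.23 in shTSC2-adapted. All 4 knockdown arrays lay above both controls, and the shTSC2 arrays differed from each other by as much as 0.40. The difference was 0.44 in shTSC2 (SE 0.15, adjusted p = 0.0884) and 0.37 in shTSC2-adapted (SE 0.15, adjusted p = 0.393), and neither passed, nor did shTSC2-adapted against shTSC2 (-0.08, adjusted p = 0.805). The shTSC2 difference passed with quantile normalization (0.57, adjusted p = 0.0279), with arrays centred on the median gene (0.50, 0.0434) and without the second shTSC2 array (0.64, 0.0211). Without the first shTSC2 array it was 0.24 (adjusted p = 0.279), and without the second control array 0.36 (0.385).

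PMAIP1, which encodes NOXA, a BH3-only protein that binds MCL1 and promotes its decay, had the largest rise of the members. It was at 7.88 and 7.61 in control, 9.05 and 8.97 in shTSC2, and 8.52 and 7.89 in shTSC2-adapted. Both shTSC2 arrays were above all others, while the adapted arrays lay 0.63 apart, with the second close to the first control. In shTSC2 it rose by 1.27 (SE 0.20, 95% interval 0.80 to 1.73, adjusted p = 0.00482), 2.40-fold, a call that ended without the second control array (1.13, adjusted p = 0.0586). In shTSC2-adapted it stood at 0.46 above control (95% interval -0.01 to 0.93, adjusted p = 0.405), a value between 0.15 without the first adapted array and 0.78 without the second. The adapted cells were lower than shTSC2 by 0.81 on the log2 scale (-0.81, SE 0.20, adjusted p = 0.0402). That call was lost in 9 of 17 settings (adjusted p = 0.121 with every probe set tested). Leaving out either control array repeats the fit of only the 4 arrays compared (adjusted p = 0.0820), so the 17 settings hold that fit more than once. The difference was -1.12 without the first and -0.49 without the second adapted array. It was -0.77 without the first and -0.85 without the second shTSC2 array.

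BCL2L11 encodes BIM, a BH3-only protein that binds all pro-survival members and that FOXO factors are known to induce. It was at 6.11 and 6.56 in control, 6.96 and 6.97 in shTSC2, and 6.02 and 6.13 in shTSC2-adapted. The shTSC2 arrays agreed closely and lay above all others, whereas the control arrays were 0.45 apart. In shTSC2 it rose by 0.63 (SE 0.15, 95% interval 0.28 to 0.98, adjusted p = 0.0234), 1.55-fold. Without the first control array the difference was 0.41 and did not pass (adjusted p = 0.136), and the call also ended without either shTSC2 array (0.0561 and 0.0600) and with every probe set tested (0.0691). In shTSC2-adapted it was -0.26 from control (95% interval -0.61 to 0.09, adjusted p = 0.555), with overlapping arrays. Against shTSC2 the adapted cells were lower (-0.89, SE 0.15, adjusted p = 0.0107), which ended without the first adapted array (adjusted p = 0.0733) and with every probe set tested (0.0511).

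BID, which death receptors engage through caspase-8, was at 8.36 and 8.37 in control, 8.24 and 8.16 in shTSC2 and 8.54 and 8.58 in shTSC2-adapted. The arrays of the 3 groups did not overlap, with the adapted cells highest. Neither knockdown group passed against control (-0.17, adjusted p = 0.256, and 0.20, adjusted p = 0.451). The adapted cells were above shTSC2 by 0.36 (SE 0.09, 95% interval 0.15 to 0.57, adjusted p = 0.0430), a call that was lost in 15 of 17 settings. Among these was the fit of only the 4 arrays compared (adjusted p = 0.116), which leaving out either control array repeats. Without 1 adapted or 1 shTSC2 array the difference was 0.32 to 0.40.

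BBC3, which encodes PUMA and is a classical p53 target, was at 7.34 and 7.17 in control, 7.40 and 7.55 in shTSC2 and 7.25 and 7.37 in shTSC2-adapted. The shTSC2 arrays were the highest, but the difference of 0.22 was close to the gaps within groups and did not pass (95% interval -0.04 to 0.48, adjusted p = 0.214). The adapted cells stood at 0.06 from control (adjusted p = 0.916) and -0.17 from shTSC2 (0.392). BIK, a BH3-only protein of the endoplasmic reticulum, was at 6.17 and 6.14 in control, 6.36 and 6.34 in shTSC2 and 6.40 and 6.30 in shTSC2-adapted. All 4 knockdown arrays of BIK were above both controls by a like amount, 0.20 in each comparison (SE 0.09, adjusted p = 0.189 and 0.459), and neither passed. Between the knockdown groups the difference of BIK was 0.00 (95% interval -0.22 to 0.22).

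**Figure D2:**
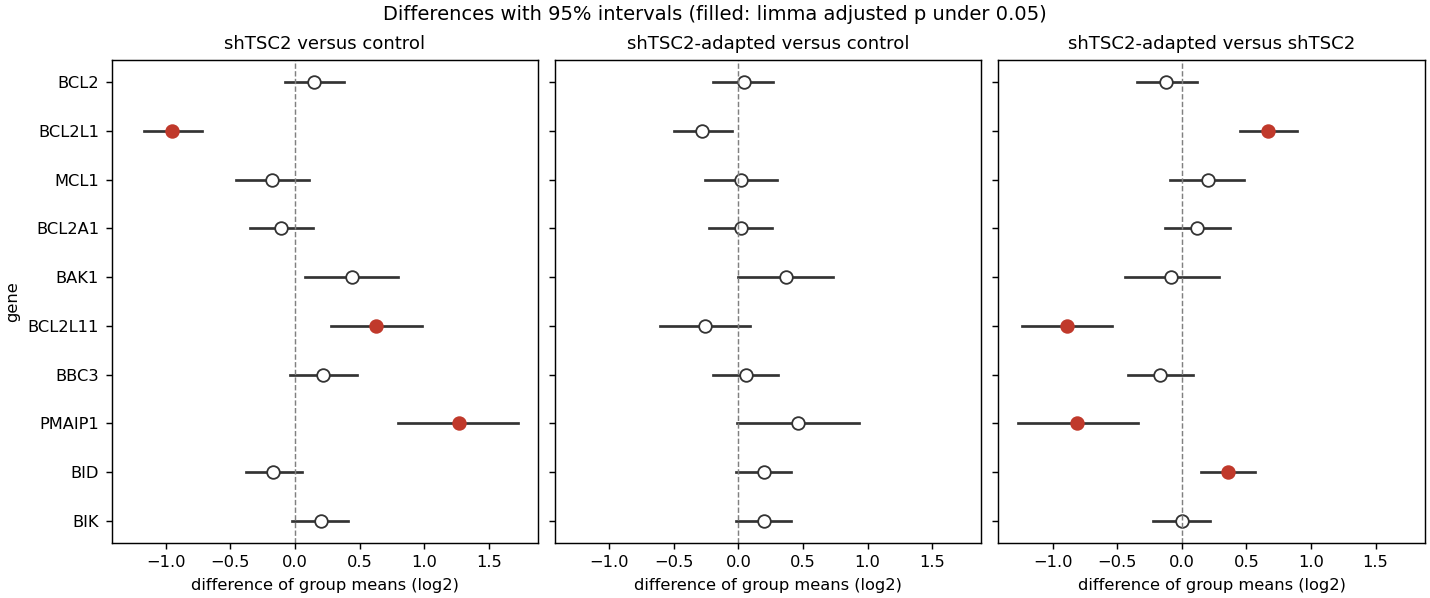
Differences of group means in log2 (horizontal axis) for each member, with 95% intervals from the linear model as lines. Filled points passed an adjusted p of 0.05. PMAIP1 (1.27) and BCL2L11 (0.63) are to the right and BCL2L1 (-0.95) to the left in shTSC2 against control, no member is filled for shTSC2-adapted against control, and the order is turned in shTSC2-adapted against shTSC2.

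By group mean, PMAIP1, BCL2L11, BCL2 and BBC3 were highest in shTSC2, where BCL2L1, MCL1, BCL2A1 and BID were lowest. BAK1 was also highest in shTSC2 but lay within 0.08 of the adapted cells, and BIK was level in both knockdown groups. For MCL1, BCL2, BCL2A1, BBC3 and BIK no neighbouring groups in that order differed by a passing test. For BCL2L1 the step from shTSC2 to the adapted cells passed and the step from the adapted cells to control did not. For PMAIP1 the step from shTSC2 down to the adapted cells passed and the step from there to control did not. For BCL2L11 the order was shTSC2, control, adapted, where the upper step passed and the lower did not. For BID the only passing difference was between the outer groups, shTSC2-adapted and shTSC2.

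**Figure D3:**
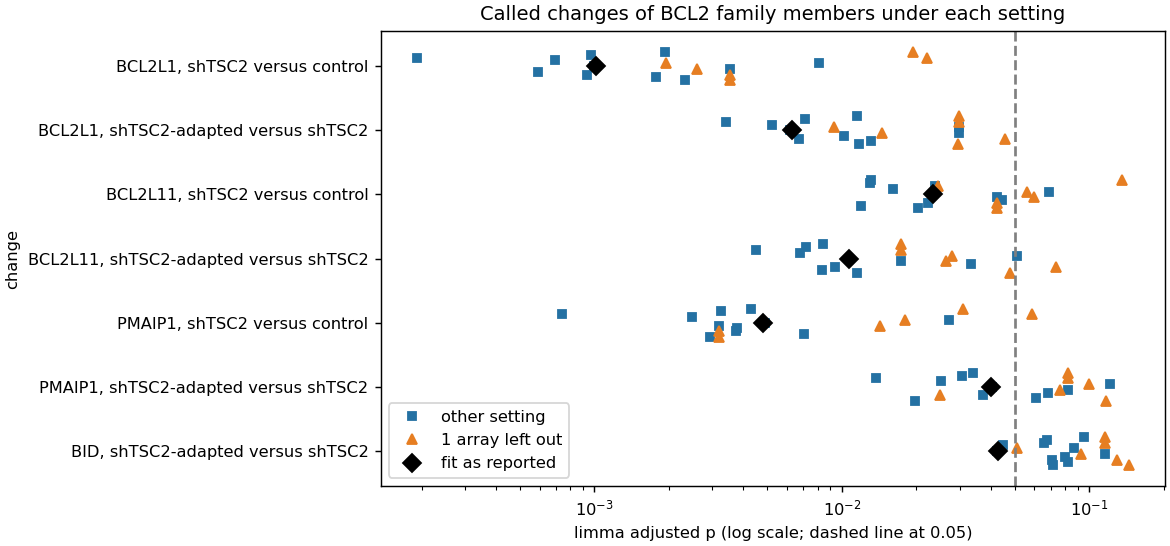
Limma adjusted p (horizontal axis, log scale, dashed line at 0.05) of the 7 member changes that passed, in the fit as reported (diamonds), with 1 array left out (triangles) and in the other settings (squares). Both BCL2L1 changes stay left of the line in all settings, with adjusted p up to 0.0221 and 0.0459, whereas BID in shTSC2-adapted against shTSC2 lies right of it in 15 of 17.

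Gene length ran with the change in shTSC2 across the array. Across 16902 genes that code for protein, and which do not count as independent replicates, the Spearman rho of the shTSC2 minus control difference with gene span was -0.33. BCL2L1 spans 59.5 kb, and in the decile of genes with like spans 22.5% fell and the median difference was -0.08. PMAIP1 spans 4.31 kb, and in its decile 10.5% rose around a median of 0.10. BCL2L11 spans 47.5 kb, in a decile where 17.5% fell and 6.69% rose. With the length trend removed, the differences in shTSC2 were -0.81 for BCL2L1 (adjusted p = 0.00178), 1.16 for PMAIP1 (0.00702) and 0.74 for BCL2L11 (0.0120). BCL2, the longest member at 197 kb, passed in that setting alone (0.42, adjusted p = 0.0264), and its decile held 31.2% of genes that fell. In shTSC2-adapted against shTSC2 the rho was 0.33. With the trend removed there, PMAIP1 (-0.71, adjusted p = 0.0609) and BID (0.29, 0.0819) did not pass, while BCL2L1 and BCL2L11 did.

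**Figure D4:**
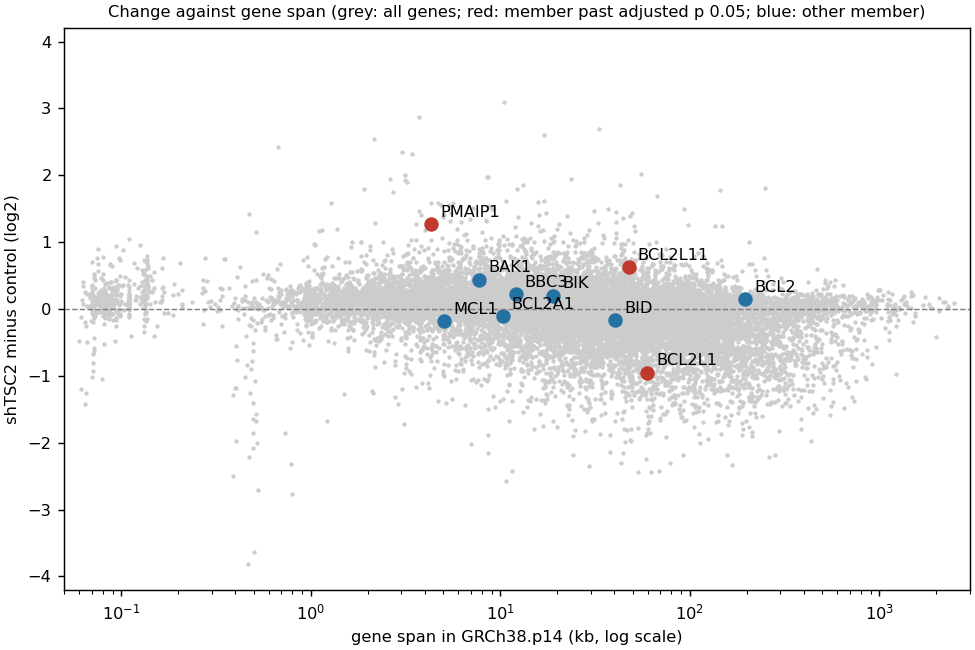
The shTSC2 minus control difference (vertical axis, log2) against gene span (horizontal axis, kb, log scale) for all genes with a span (grey) and the 10 members, red where the adjusted p passed. Long genes lean below zero (Spearman rho -0.33 over protein-coding genes), while BCL2L11 (0.63) and BCL2 (0.15) lie above.

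The genes with a pattern most like the 3 members that varied most between groups were found by the root mean square distance of centred log2 values over the 6 arrays. For PMAIP1 they were DNAJB9, a chaperone of the endoplasmic reticulum (distance 0.109), SPRY4, a feedback inhibitor of receptor signalling (0.122), and SLCO4A1, an organic anion transporter (0.145). For BCL2L1 they were ZBTB4 (0.0314), RACGAP1, which acts in cytokinesis (0.0330), and CCDC12 (0.0340). For BCL2L11 they were ZDBF2 (0.101), IL6ST, the shared receptor chain of the interleukin-6 family (0.116), and TEX52 (0.135). The median distance of a gene was 0.565, 0.421 and 0.406 from these members.

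No further member of the family passed, where 20.8%, 0.261% and 12.5% of all genes did in the 3 comparisons. Of 12 further BCL2 family genes measured, 0 passed with limma in any comparison, with 3, 1 and 4 at an unadjusted p under 0.05 in shTSC2 against control, shTSC2-adapted against control and shTSC2-adapted against shTSC2. In shTSC2 their differences ran from -0.30 to 0.28 around a median of 0.01. BAX, the partner effector of BAK1, was at 7.55 and 7.47 in control, 7.61 and 7.77 in shTSC2, and 7.63 and 7.56 in shTSC2-adapted (0.18 in shTSC2, adjusted p = 0.264). The hypoxia-induced mitophagy genes BNIP3 (-0.30, adjusted p = 0.132) and BNIP3L (-0.19, 0.217) did not pass in shTSC2, nor did the effector-like BOK (-0.29, 0.0834). Among the BH3-only genes of this list, BAD (0.03), BMF (-0.02) and HRK (0.28) did not pass (adjusted p = 0.898, 0.941 and 0.218). Of the others, BCL2L10 stood at 0.28, BCL2L12 at 0.26, BCL2L13 at -0.09, BCL2L14 at -0.10 and BCL2L15 at 0.05.

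Downstream of the mitochondrion, 3 of 13 genes of caspases and mitochondrial release fell and 1 rose in shTSC2, against 13.9% and 6.87% of all genes. CASP6, an executioner caspase, was at 6.97 and 7.02 in control, 6.02 and 5.50 in shTSC2, and 6.68 and 6.79 in shTSC2-adapted, and fell in shTSC2 by 1.24 (-1.24, SE 0.16, adjusted p = 0.00251). CASP9 (-0.67, SE 0.10, adjusted p = 0.00329) and APAF1 (-0.59, SE 0.13, adjusted p = 0.0178), whose products are parts of the apoptosome, also fell. Both calls ended without the second control array, where the differences were -0.62 and -0.57. APAF1 also ended without the first control array (0.108), without the second shTSC2 array (0.0555) and with the length trend removed (0.0709). CYCS, which encodes cytochrome c of the respiratory chain and of the apoptosome, rose by 1.12 (SE 0.15, adjusted p = 0.00239). Against shTSC2 the adapted cells were higher in CASP6 (0.98), CASP9 (0.61) and APAF1 (0.51; adjusted p = 0.0110, 0.00881 and 0.0441). Without the first adapted array these had adjusted p of 0.0574, 0.0549 and 0.0703, and APAF1 was lost in 12 of 17 settings. Of 6 inhibitors of apoptosis, BIRC5, a mitotic gene also called survivin, fell (-0.63, adjusted p = 0.00430) and BIRC2 rose (0.39, adjusted p = 0.0200), with XIAP at -0.28 (0.286). With every probe set tested, a second, dimmer one of BIRC5 gave -0.37 and did not pass (adjusted p = 0.177). BIRC5 ended without the first control array (0.0552), and BIRC2 without the first (0.132) or the second (0.147).

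Of 12 death receptor genes, 3 rose and 2 fell in shTSC2, against 6.87% and 13.9% of all genes. The rises were in receptors for the ligand TRAIL: the signalling receptors TNFRSF10A (0.52, adjusted p = 0.0124) and TNFRSF10B (0.43, 0.0274) and the decoy TNFRSF10D (0.80, 0.00348). CFLAR, which blocks caspase-8 at these receptors, fell (-0.74, adjusted p = 0.00755), as did the TNF receptor TNFRSF1A (-0.63, 0.00938). A second, dimmer probe set of CFLAR gave -1.94 (adjusted p = 0.0400 with every probe set tested). Without the second control array TNFRSF10A (adjusted p = 0.126), TNFRSF10B (0.217), CFLAR (0.0847) and TNFRSF1A (0.0793) did not pass, nor TNFRSF10B (0.0875) and TNFRSF1A (0.0825) without the first. TNFRSF10B also ended without the first shTSC2 array (0.0712). In shTSC2-adapted against control, TNFRSF10A stood at 0.62 (adjusted p = 0.0727) and TNFRSF10B at 0.28 (0.333), and neither passed. Nor did they pass in shTSC2-adapted against shTSC2 (0.10, adjusted p = 0.619, and -0.15, 0.420). TNFRSF10D was lower in the adapted cells than in shTSC2 (-0.85, adjusted p = 0.00538) and was the 1 gene of this list that passed there.

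Known regulators of BCL2 family transcripts moved in both directions, where in shTSC2 6.87% of all genes rose and 13.9% fell. Of 12 such transcription factors, E2F1 (1.05, adjusted p = 0.00155), JUN (0.96, 0.0134) and FOXO3 (0.58, 0.0377) rose in shTSC2, and ATF4 (-1.26, 0.000524) and HIF1A (-0.82, 0.00732) fell. With every probe set tested, a second one of ATF4 gave -0.25 (adjusted p = 0.399). DDIT3, the stress factor CHOP, was at 0.65 in shTSC2 (adjusted p = 0.0524) and 0.69 in shTSC2-adapted (0.190). FOXO3 was lost without either control array (adjusted p = 0.244 and 0.0584) and in 7 other settings. JUN ended without the first (0.0737) or the second (0.112) control array and HIF1A without the second (0.0798). In shTSC2-adapted against shTSC2, ATF4 was higher (1.00, adjusted p = 0.00249; its second probe set 0.41, 0.244), and E2F1 (-0.48, 0.0412) and RELA (-0.39, 0.0349) were lower. RELA passed in 4 and E2F1 in 7 of 17 settings.

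Of 10 genes for partners and turnover of BCL2 family proteins, 4 fell and none rose in shTSC2: MAPK8, the stress kinase JNK1 (-0.87, adjusted p = 0.00320), GSK3B, a kinase that marks MCL1 for decay (-0.70, 0.0124), MARCHF5, a mitochondrial ubiquitin ligase (-0.61, 0.00425), and USP9X, a deubiquitinase that stabilises MCL1 (-0.61, 0.0210). Of all genes, 13.9% fell and 6.87% rose in that comparison. The median of this list was -0.46, against 0.03 over all genes. Its genes are long, 6 of the 10 spanning 133 to 273 kb, where falls were frequent across the array. With the length trend removed, USP9X was at -0.35 (adjusted p = 0.102) and GSK3B at -0.41 (0.0592), and neither passed. MAPK8 and MARCHF5 still passed in that setting. The MCL1 ubiquitin ligase genes HUWE1 (-0.53) and FBXW7 (-0.38) did not pass (adjusted p = 0.0759 and 0.0828). MAPK8 (0.76), MARCHF5 (0.58) and GSK3B (0.54) were higher and DYNLL2, a dynein light chain that binds BMF (-0.51), lower in the adapted cells than in shTSC2 (adjusted p = 0.00956, 0.00941, 0.0487 and 0.0442). Without the second control array the falls of GSK3B (0.0866), MARCHF5 (0.0523) and USP9X (0.155) did not pass, nor without the first (0.0997, 0.0509 and 0.104). Without the first adapted array MAPK8 (0.0529), MARCHF5 (0.0581), GSK3B (0.222) and DYNLL2 (0.208) did not pass against shTSC2. GSK3B was lost there in 13 of 17 settings, with 0.30 (0.174) after removal of the length trend and 0.35 (0.109) without the first shTSC2 array, DYNLL2 in 10, MAPK8 in 2 and MARCHF5 in 1.

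Of 13 p53 targets, 2 rose and 2 fell in shTSC2, against 6.87% and 13.9% of all genes. Du145 is known to carry mutant p53. GADD45A, a stress-induced growth arrest gene, rose by 1.93 (SE 0.28, adjusted p = 0.00360) and CDKN1A, the p21 cell cycle inhibitor, by 0.50 (0.0142), while TP53INP1 (-1.21, 0.0286) and MDM2, the p53 ubiquitin ligase (-0.90, 0.00201), fell. In the adapted cells against shTSC2, GADD45A was lower (-1.08, adjusted p = 0.0488) and MDM2 higher (0.64, 0.0128). CDKN1A and TP53INP1 ended without the first (0.0999 and 0.108) or the second (0.117 and 0.182) control array. The shTSC2 arrays of TP53INP1 were far apart, at 7.16 and 6.09, and its difference was -1.75 without the first and -0.68 without the second. Its call also ended with only the 4 arrays compared (adjusted p = 0.0548), a fit that leaving out either adapted array repeats. MDM2 in the adapted cells ended without the first adapted array (0.0752), and GADD45A was lost there in 10 of 17 settings, with -0.59 without the second adapted array (0.0935).

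**Figure D5:**
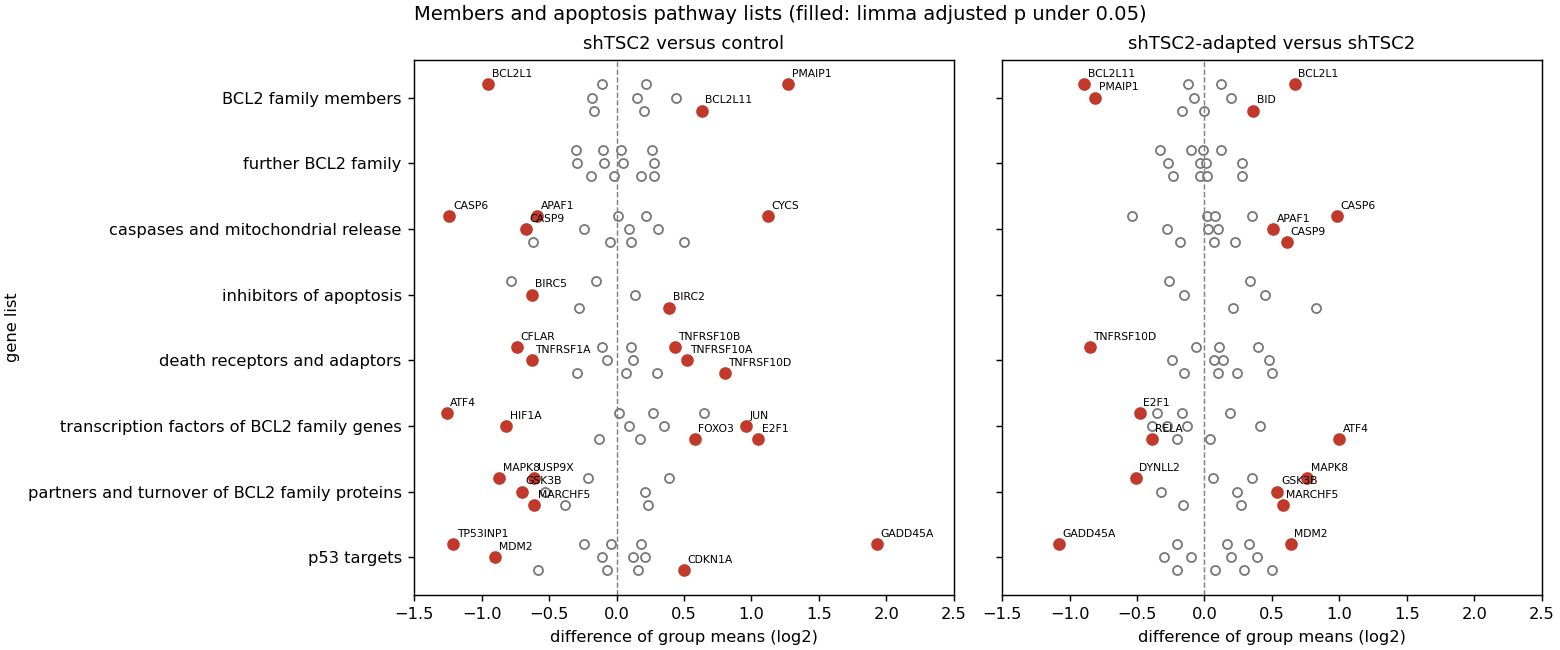
Differences of group means in log2 (horizontal axis) for the members and the 7 apoptosis lists, in shTSC2 against control (left) and shTSC2-adapted against shTSC2 (right). Each point is a gene, vertical offsets within a list only separate points, and filled points passed an adjusted p of 0.05. The further BCL2 family has no filled point in either panel, while CASP6, ATF4 and MDM2 are filled on opposite sides in the 2 panels.

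Over the 7 lists together, 24 of 76 measured genes passed in shTSC2 against control (10 higher and 14 lower, 31.6% against 20.8% of all genes), 0 in shTSC2-adapted against control with limma (18 at an unadjusted p under 0.05) and 13 in shTSC2-adapted against shTSC2 (8 higher and 5 lower, 17.1% against 12.5%). The count in shTSC2 was 12 without the first and 10 without the second control array, and that of the last comparison 3 without the first adapted array. CASP6, CYCS, TNFRSF10D, E2F1, ATF4, MAPK8, MDM2 and GADD45A kept their call in shTSC2 in all 17 settings. In the last comparison TNFRSF10D and ATF4 did so. For ATF4 these settings follow its brighter probe set or the mean of its probe sets, and the dimmer probe set alone did not pass in either comparison.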

How the data were processed

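Total RNA (100 ng) of 6 samples was labelled with biotin and hybridised to a whole-transcript array. The authors deposited 1 linear intensity per probe set and array, which the submitters' processing notes credit to RMA with no version. The probe definition and build remain not given in the sources used here. Because RMA brings arrays to a common scale, it can hide a shift of most genes. Arrays have no read depth, and 2 per group limit the precision. The log2 of every intensity lay within 6.99e-10 of 2 decimals, and log2 values were used.

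Of 33297 probe sets, 19460 had 1 gene symbol in the platform annotation, 1754 several and 12083 none. Gene identifiers of 19429 matched the GRCh38.p14 table, used for names and spans. The brightest probe set per gene left 18417 genes. One model with 3 group means was fitted (lmFit, contrasts.fit and eBayes of limma 3.58.1 under R 4.3.3; 3 residual degrees of freedom), with Benjamini-Hochberg adjustment, and tested on simulated data. Alternatives were other scalings, filters, probe set rules, array weights, variance priors, removal of the length trend, an array-number block and leaving out each array. Members and the further BCL2 family are always named, as are the 2 largest rises and falls that passed in each other list and the 3 genes nearest to each of the 3 members with the widest spread of group means (small RNA, olfactory receptor and uncharacterised genes left out); others were named after their values were seen. The members and lists were chosen with earlier results of these data known, and the motifs after the values were seen. Of 84 listed genes, 76 were measured and 8 were not analysed here.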

Additional observations from a re-analysis of the deposited data

Results flagged for a closer look

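The levels in shTSC2 and in shTSC2-adapted, both set against the same control arrays, differed for 4 members by the direct test between these groups (limma, n = 2 arrays per group). As shTSC2-adapted minus shTSC2, the difference was 0.67 for BCL2L1 (adjusted p = 0.00628), -0.89 for BCL2L11 (0.0107), -0.81 for PMAIP1 (0.0402) and 0.36 for BID (0.0430). In all 4 genes the arrays of both groups did not overlap, which 52.1% of all genes also showed. These 4 genes were picked by a test on the same arrays, so the lack of overlap adds no separate support. The test itself passed for 12.5% of all genes. Of the 17 alternative settings, BID lost its call in 15, PMAIP1 in 9 and BCL2L11 in 2. The same test passed for 13 other genes of the apoptosis lists (17.1% of those measured), and 11 of these calls were lost in some setting. CASP6 (0.98), CASP9 (0.61), APAF1 (0.51), ATF4 (1.00), GSK3B (0.54), MARCHF5 (0.58), MAPK8 (0.76) and MDM2 (0.64) were higher in the adapted cells. TNFRSF10D (-0.85), E2F1 (-0.48), RELA (-0.39), DYNLL2 (-0.51) and GADD45A (-1.08) were lower there. Groups of 2 arrays were too small to look for single arrays that stand apart.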

How the results depend on the processing

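Of the 30 differences of the 10 members, 5 lost and 2 gained a call in at least 1 of 17 alternatives, and 5 that did not pass changed sign. The rest kept their side of the threshold in all settings run and, except for BIK in shTSC2-adapted against shTSC2, their direction. The BIK difference was 0.00 and ran from -0.05 to 0.05 over the settings. BCL2 and BCL2A1 have no value with dim genes left out. In shTSC2-adapted against control, sign changes came from centring on the median of all probe sets, an alternative added after the data were seen (BCL2 -0.01, MCL1 -0.03, BCL2A1 -0.03), and from leaving out 1 array (over these settings BCL2 -0.04 to 0.11, MCL1 -0.12 to 0.16, BCL2A1 -0.09 to 0.12, BBC3 -0.03 to 0.14); leaving out 1 array also turned BAK1 in shTSC2-adapted against shTSC2 (-0.28 to 0.13). The number of members called in shTSC2-adapted against shTSC2 was 4, and 1 with every probe set tested. It was 2 with only the 4 arrays compared, with array weights or with the length trend removed, and was also lower without any single array. Leaving out either array of the group not compared repeats the fit of only the 4 arrays compared. Counts out of 17 settings therefore hold that fit more than once. The number of members called was 2 to 4 in shTSC2 against control and 0 throughout in shTSC2-adapted against control.

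The number of listed apoptosis genes called was 10 to 26 with 1 array left out against 24 in shTSC2, 0 to 3 against 0 in shTSC2-adapted, and 3 to 14 against 13 in shTSC2-adapted against shTSC2. In shTSC2-adapted against control it was 3 with only the 4 arrays compared or with array weights. In shTSC2-adapted against shTSC2 it was 6 with every probe set tested, 7 with only the 4 arrays compared or with array weights, and 8 with the variance trend or the block. The causes were not tested, except that testing every probe set adjusts over more tests. Over all genes in shTSC2 against control, 1266 were higher and 2567 lower, but 1891 and 2111 with quantile normalization, 1802 and 2257 with centring on the median gene and 869 and 2962 with centring on the median probe set; in shTSC2-adapted against shTSC2, 1703 and 597 became 1345 and 942 with quantile normalization.

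Arrays share a number across groups without a stated pairing, and same-numbered arrays' deviations correlated across genes at -0.10, -0.19 and 0.21. With the array number as a replicate block, 3, 0 and 3 members passed in the 3 comparisons, BID being lost (0.36, adjusted p = 0.0712), as were TSC2 in shTSC2-adapted against control (0.0515) and APAF1, RELA, GSK3B, DYNLL2 and GADD45A in shTSC2-adapted against shTSC2 (0.0553 to 0.0713), 25 and 8 listed genes passed in the comparisons with shTSC2, and all genes called were 3536, 1 and 2064 against 3833, 48 and 2300.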
